A study of Mus musculus with 6 samples.

Results

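Transcripts of 10 genes of the BCL2 family were followed across 6 RNA-seq libraries of mouse leukemia, 3 from leukemia treated with CCL5 and 3 from leukemia under control conditions. The 10 genes were given as a list, and all of them were found among the 23337 genes of the deposited count table. They are the survival genes Bcl2, Bcl2l1, Mcl1 and Bcl2a1b, the pore-forming genes Bax and Bak1, and the BH3-only genes Bcl2l11, Bbc3, Pmaip1 and Bid. All 6 libraries are labelled primary neonatal murine leukemia, and the series title places them among MLL-rearranged leukemias. By their labels, 3 libraries come from a primary transplant of the leukemia, namely ccl5 replicates 2 and 3 and control replicate 3; ccl5 replicate 1 comes from a tertiary transplant, and for control replicates 1 and 2 no transplant is named. The MLL fusion, the mouse strain, the age of the animals, the dose and route of CCL5 and the length of exposure are not given in the sources used here. CCL5 is a chemokine that attracts leukocytes.

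Proteins of the BCL2 family decide whether the outer membrane of the mitochondrion is opened, the step that commits a cell to apoptosis. BAX and BAK form the pore, the survival proteins BCL2, BCL-XL, MCL1 and A1 hold them in check, and BH3-only proteins bind the survival proteins or activate the pore formers directly. MCL1 and A1 are short-lived proteins, and NOXA binds MCL1 in particular. The response of acute leukemias to drugs that block BCL2 is known to depend on how much MCL1, BCL-XL and A1 the cells make.

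Library totals lay between 13421100 and 18445095 counts. Levels are given as CPM, counts scaled to a common library total, after TMM scaling, a correction for differences in library make-up; per-library values are given in replicate order. A library holding 3 counts of a gene would show 0.160 to 0.273 CPM, and every one of the 10 genes had at least 9 counts in each library. The 6 libraries fell into 3 close pairs: ccl5 replicates 1 and 3, control replicates 1 and 2, and ccl5 replicate 2 with control replicate 3 (Pearson r across tested genes 0.993, 0.995 and 0.995; 0.826 to 0.887 for the other pairings). Genes are not independent replicates, so these r are descriptions. Reads of 4 Y-linked genes were at 0 in ccl5 replicates 1 and 3 and between 5103 and 7777 in the other 4 libraries. The leukocyte gene Ptprc measured 522 to 783 CPM and the myeloid gene Itgam 431 to 773 CPM. Both are part of a list of 8 leukocyte and myeloid markers, in which Sfpi1 (165 to 283 CPM) varied about as little. The others varied more: Cebpa at 82.6 to 329, Csf3r at 63.2 to 233 and Csf1r at 77.6 to 406 CPM. Lyz2 ran from 3024 to 17581 CPM and Mpo from 1.64 to 232 CPM. The B-cell markers summed to 12.03 to 17.0 CPM, most of it Cd79b at 10.5 to 15.9 CPM, and among them Pax5, Ebf1 and Ms4a1 had at most 3 counts in any library. The labels do not tell whether each library is a mouse or culture of its own, and p-values measure the spread between these libraries, which may be technical.

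Setting the ccl5 group against the control group asks how transcripts of these survival and death genes stand after exposure to CCL5. None of the 10 genes passed the test. Pmaip1 and Bid, both BH3-only genes, had all 3 ccl5 levels below all 3 control levels, at mean levels of 71.9 against 237 CPM and 53.2 against 82.0 CPM. For the other 8 genes the groups overlapped. Mcl1, Bcl2l1, Bcl2l11, Bbc3 and Bax were highest in ccl5 replicates 1 and 3 and lowest in ccl5 replicate 2 and control replicate 3.

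With edgeR's quasi-likelihood test, 0 of the 10 genes passed an adjusted p of 0.05, where 0% of all 12174 tested genes did. At an unadjusted p under 0.05 there were 2 of 10, Pmaip1 and Bid, both lower with CCL5, against 13.7% of all tested genes (8.99% higher and 4.67% lower). The same 2 genes were those without overlap between the groups, which held for 15.8% of all tested genes (8.27% higher and 7.49% lower). The 2 of 10 lie near the shares for either direction and above those for lower genes alone, and nothing particular to the family is read from 2 genes. Fold changes above 0 on the log2 scale were found for 7 genes and below 0 for 3, with a median of 0.22 against -0.01 over all tested genes. Scaling to library totals alone moved the median of all tested genes by -0.16 and the share of genes above 0 from 49.0% to 34.9%, and then 5 of the 10 genes lay above 0, with Bcl2a1b and Bak1 changing sign and a median of 0.057 over the 10. DESeq2 called 0 of the 9 genes for which it gave an adjusted p (1.64% of all genes), with Pmaip1 nearest at an adjusted p of 0.0547. Limma-voom with sample quality weights called 8, all but Bcl2 and Bak1 (6 higher and 2 lower), in a fit that called 66.5% of all genes.

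**Figure D1:**
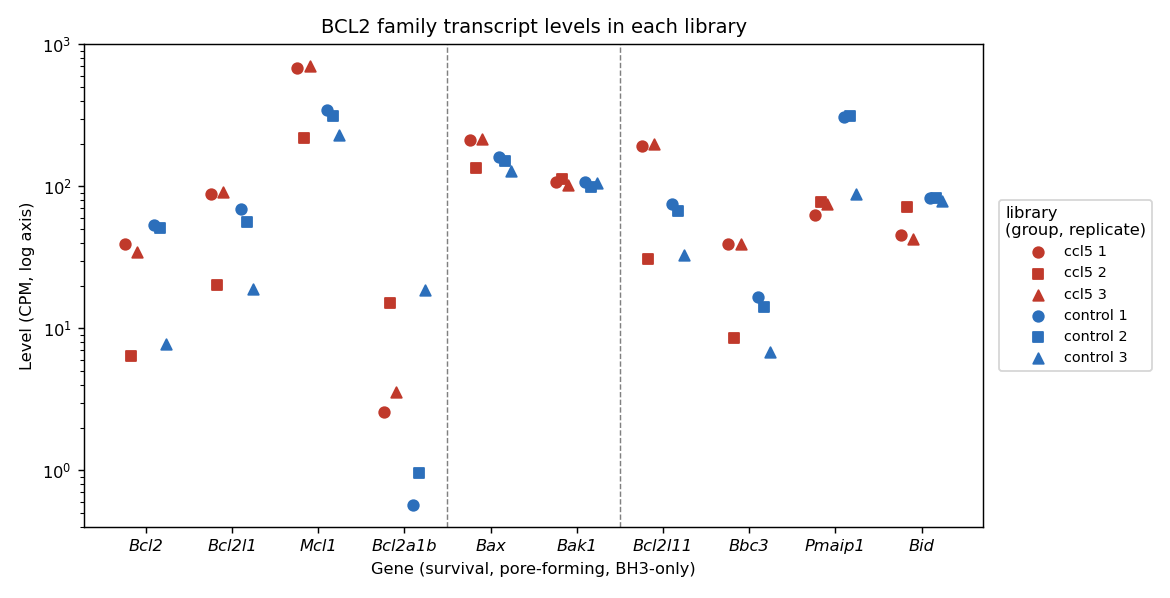
Level of each of the 10 genes in each library, in CPM on a log axis; red symbols are ccl5 libraries, blue symbols control libraries, and the symbol shape is the replicate number. The points of Pmaip1 and Bid separate by group. In most genes, Pmaip1 and Bid included, ccl5 replicate 2 lies beside control replicate 3.

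Mcl1, a survival gene with a short-lived protein (chromosome 3, 95658721 to 95663178, mm10), measured 677, 220.3 and 705 CPM with CCL5, against 344, 314 and 230.0 CPM without. Levels in ccl5 replicates 1 and 3 were above every control, and ccl5 replicate 2 was below all 3, so the groups overlapped. Its log2 fold change was 0.85 (SE 0.46, 95% interval -0.29 to 1.99, adjusted p = 0.438 in edgeR). Bcl2l1, which encodes BCL-XL (chromosome 2, 152780668 to 152831682), measured 87.7, 20.3 and 91.7 CPM with CCL5, against 68.9, 55.7 and 18.9 CPM without. The lowest levels were again those of ccl5 replicate 2 and control replicate 3, 4.86 times below the highest library in the lower of the pair. Its log2 fold change was 0.48 (SE 0.69, 95% interval -1.23 to 2.18, adjusted p = 0.775 in edgeR).

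Bcl2, the founding survival gene of the family (chromosome 1, 106538179 to 106714290), was laid out differently, with its highest levels in control replicates 1 and 2. It measured 39.4, 6.35 and 34.2 CPM with CCL5, against 53.7, 50.6 and 7.70 CPM without. The log2 fold change was -0.49 (SE 0.90, 95% interval -2.69 to 1.72, adjusted p = 0.823 in edgeR). Between its highest library, control replicate 1, and its lowest, ccl5 replicate 2, Bcl2 differed 8.46-fold.

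Bcl2a1b (chromosome 9, 89199273 to 89207838) is one of several near-identical mouse copies of the A1 survival gene, and its counts depend on where reads were placed among them. The coding sequences of Bcl2a1a, Bcl2a1b and Bcl2a1d in GENCODE are each 519 bases long, and Bcl2a1b differs from Bcl2a1a at 11 positions and from Bcl2a1d at 6. Of the 420 stretches of 100 bases in the coding sequence, the length of the reads, 28.1% are identical between Bcl2a1b and Bcl2a1a and 30.2% between Bcl2a1b and Bcl2a1d. The first 100 bases of the coding sequence, shown here because several positions in them tell the copies apart, lie in mm10 at chr9:88957051-88957150, plus strand for Bcl2a1a, chr9:89199360-89199459, plus strand for Bcl2a1b and chr9:88731620-88731719, minus strand for Bcl2a1d; capitals mark the 7 positions at which the 3 copies are not all the same.
Bcl2a1a: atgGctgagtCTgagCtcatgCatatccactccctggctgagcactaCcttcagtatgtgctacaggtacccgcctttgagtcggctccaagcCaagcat
Bcl2a1b: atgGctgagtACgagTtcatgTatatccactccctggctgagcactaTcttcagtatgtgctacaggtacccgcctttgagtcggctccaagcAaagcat
Bcl2a1d: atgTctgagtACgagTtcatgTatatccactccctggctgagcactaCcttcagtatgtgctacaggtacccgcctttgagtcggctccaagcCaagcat

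Bcl2a1b had 36, 245 and 39 counts with CCL5 and 9, 18 and 336 without, or 2.56, 15.0 and 3.55 CPM and 0.571, 0.960 and 18.5 CPM. It was the most variable of the 10 genes, 32.4-fold between control replicates 3 and 1, and high in ccl5 replicate 2 and control replicate 3 alone. The exact 95% Poisson interval of the lowest value was 0.261 to 1.08 CPM and that of the highest 16.6 to 20.6 CPM, for counting error only. The log2 fold change was 0.08 (SE 1.41, 95% interval -3.38 to 3.54, adjusted p = 0.984 in edgeR). Without ccl5 replicate 2 the log2 fold change was -1.13, and without control replicate 3 it was 3.20, so single libraries set its sign.

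The sister copies shared the 2 highest libraries of Bcl2a1b, but not its higher level in ccl5 replicates 1 and 3 than in control replicates 1 and 2. Bcl2a1a measured 0.427, 19.4 and 0.819 CPM with CCL5, against 0.761, 0.693 and 19.1 CPM without, and Bcl2a1d 1.42, 10.2 and 1.46 against 1.71, 2.19 and 9.57 CPM. Bcl2a1c had at most 2 counts in any library. Summed over these 4 copies, 44.7 and 47.3 CPM were reached in ccl5 replicate 2 and control replicate 3, and 3.04 to 5.82 CPM in the other 4 libraries. The summed counts gave a log2 fold change of 0.02 (SE 1.37). How the reads divided among the copies differed between the pairs of libraries. Bcl2a1b took 58.1% and 60.9% of the summed counts in ccl5 replicates 1 and 3, 33.5% and 39.1% in ccl5 replicate 2 and control replicate 3, and 18.8% and 25.0% in control replicates 1 and 2. Exact binomial 95% intervals, which cover counting error only, were 44.8% to 70.5% in ccl5 replicate 1, 30.1% to 37.0% in ccl5 replicate 2 and 15.5% to 36.6% in control replicate 2.

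The summed level of the 10 neutrophil markers moved with the Bcl2a1 copies, at 639, 13523 and 674 CPM with CCL5, against 1193, 1239 and 13211 CPM without. Of these markers 9 were highest in ccl5 replicate 2 and control replicate 3, and Ltf was at or under 3 counts in ccl5 replicates 1 and 3. The remaining marker, Mmp8, was highest in ccl5 replicates 1 and 3. It measured 465, 250 and 533 CPM with CCL5, against 44.1, 35.6 and 286 CPM without. The part of the 10 markers in the Bcl2a1 values was not tested. In bulk RNA, fewer cells of a type and less RNA per cell cannot be told apart.

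**Figure D2:**
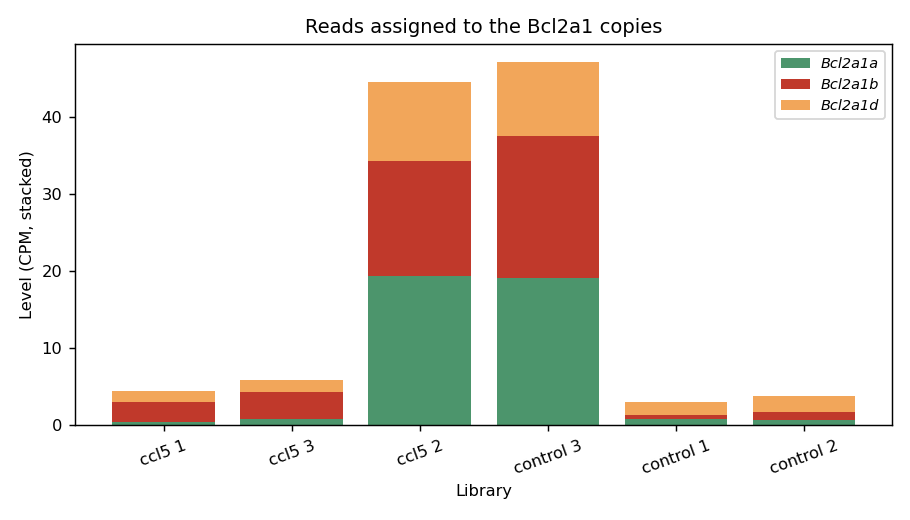
CPM assigned to Bcl2a1a, Bcl2a1b and Bcl2a1d in each library, stacked; Bcl2a1c, with at most 2 counts in a library, is left out. The bars of ccl5 replicate 2 and control replicate 3 stand far above those of the other 4 libraries.

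The pore-forming genes varied least. Bak1 (chromosome 17, 27019812 to 27028626) measured 108, 113 and 103 CPM with CCL5, against 107, 98.4 and 105 CPM without, within 1.15-fold across all 6. Group means were 108 ± 5.32 and 103 ± 4.35 CPM (SD, n = 3 each), and the log2 fold change was 0.06 (SE 0.13, 95% interval -0.26 to 0.38, adjusted p = 0.843 in edgeR). Bax (chromosome 7, 45461695 to 45466898) measured 214, 136 and 216 CPM with CCL5, against 160.3, 151 and 129 CPM without. Both ccl5 replicates 1 and 3 exceeded every control, while ccl5 replicate 2 lay between control replicates 3 and 2. Its log2 fold change was 0.36 (SE 0.23, 95% interval -0.21 to 0.92, adjusted p = 0.496 in edgeR).

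Of the BH3-only genes, Bcl2l11 and Bbc3 were highest in ccl5 replicates 1 and 3. Bid was lowest there, and Pmaip1 was high in control replicates 1 and 2 alone. Bcl2l11, which encodes BIM (chromosome 2, 128126038 to 128162547), measured 194, 30.8 and 199.8 CPM with CCL5, against 75.0, 66.6 and 32.7 CPM without. Ccl5 replicate 2 had the lowest level of all 6 libraries, next to control replicate 3. The log2 fold change was 1.28 (SE 0.72, 95% interval -0.48 to 3.05, adjusted p = 0.45 in edgeR). Bbc3, which encodes PUMA (chromosome 7, 16309583 to 16318334), was laid out alike, at 39.2, 8.61 and 39.5 against 16.6, 14.2 and 6.77 CPM. Its log2 fold change was 1.22 (SE 0.64, 95% interval -0.36 to 2.79, adjusted p = 0.426 in edgeR).

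The summed markers of monocytes and macrophages were also highest in ccl5 replicates 1 and 3, but not every marker was. Their summed level over 10 genes was 7839, 2528 and 8655 CPM with CCL5, against 3689, 3738 and 2684 CPM without. Of the 10, 7 were highest in ccl5 replicates 1 and 3, among them Mrc1 and Cx3cr1 at no more than 1.64 and 1.85 CPM. The other 3, Cd14, Ly6c2 and Ccr2, were highest in control replicates 1 and 2. None of the 10 was at or under 3 counts in all libraries. The part of the cells these markers stand for in the values of Mcl1, Bcl2l1, Bcl2l11, Bbc3 and Bax was not tested.

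Pmaip1, which encodes NOXA, the BH3-only partner of MCL1 (chromosome 18, 66458604 to 66465558), measured 62.4, 77.7 and 75.7 CPM with CCL5, against 306, 315 and 88.9 CPM without. The difference lay in control replicates 1 and 2, since control replicate 3 exceeded the highest ccl5 library by 1.14-fold only. Group means were 71.9 ± 8.32 and 237 ± 128 CPM (SD, n = 3 each), and the log2 fold change was -1.72 (SE 0.49, 95% interval -2.92 to -0.52, adjusted p = 0.365 in edgeR). Bid, which links death receptors to the mitochondrion (chromosome 6, 120893119 to 120916820), measured 45.5, 71.6 and 42.5 CPM with CCL5, against 83.3, 83.4 and 79.1 CPM without. Here the difference lay in ccl5 replicates 1 and 3, and ccl5 replicate 2 was 1.10-fold below control replicate 3. The log2 fold change was -0.62 (SE 0.23, 95% interval -1.19 to -0.05, adjusted p = 0.365 in edgeR).

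**Figure D3:**
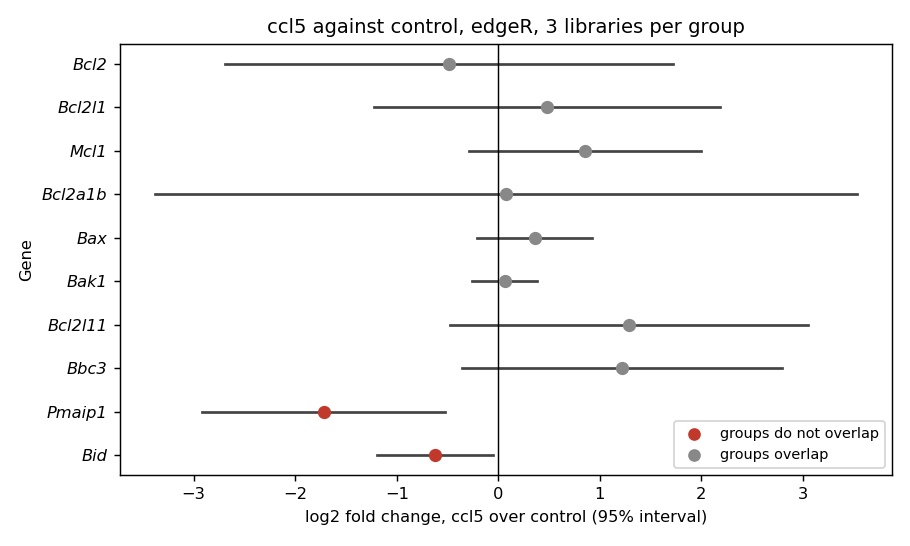
Log2 fold change of each gene, ccl5 over control, with its 95% interval from the edgeR fit (points, estimates; lines, intervals). The intervals of Pmaip1 and Bid, in red, lie below 0 and those of the other 8 genes cross it.

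Calls appeared when single libraries were left out. Without ccl5 replicate 2, a fit in which 26.2% of all genes were called, edgeR called 5 of the 10 genes. Mcl1 had a log2 fold change of 1.23 (adjusted p = 0.0151), Bcl2l11 of 1.77 (adjusted p = 0.0259), Bbc3 of 1.66 (adjusted p = 0.0351), Bax of 0.55 (adjusted p = 0.0396) and Bid of -0.89 (adjusted p = 0.00771). The ccl5 libraries left in that fit are the pair without Y-linked reads, so in it the treatment cannot be told apart from the absence of Y-linked reads. Without control replicate 3, where 1.88% of all genes were called, only Pmaip1 was called, at -2.10 (adjusted p = 0.0253). When only the 4 libraries that hold Y-linked reads were fitted, 1 of them ccl5 and 3 control, the log2 fold changes of Mcl1, Bcl2l1, Bcl2l11, Bbc3 and Bax turned negative (-0.43, -1.24, -0.92, -0.54 and -0.12). Pmaip1 and Bid, whose groups did not overlap and whose sign could hardly turn with fewer libraries, were at -1.61 and -0.20 there. In a fit restricted to the primary transplant, with 2 ccl5 libraries and 1 control, they were at -0.23 and -0.48.

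In the layout over libraries, each gene except Bak1 had its 2 highest libraries within one close pair. That pair was ccl5 replicates 1 and 3 for 5 genes, control replicates 1 and 2 for Bcl2, Pmaip1 and Bid, and ccl5 replicate 2 with control replicate 3 for Bcl2a1b. Over the 10 genes the root mean square difference in log2 CPM was 0.186 between ccl5 replicates 1 and 3, 0.250 between control replicates 1 and 2, and 0.195 between ccl5 replicate 2 and control replicate 3. For every other pairing of libraries, within or between groups, it was 1.20 or more. Between ccl5 replicate 2 and control replicate 3, which carry different treatment labels, the widest gap among the 10 genes was 1.27-fold, for Bbc3.

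**Figure D4:**
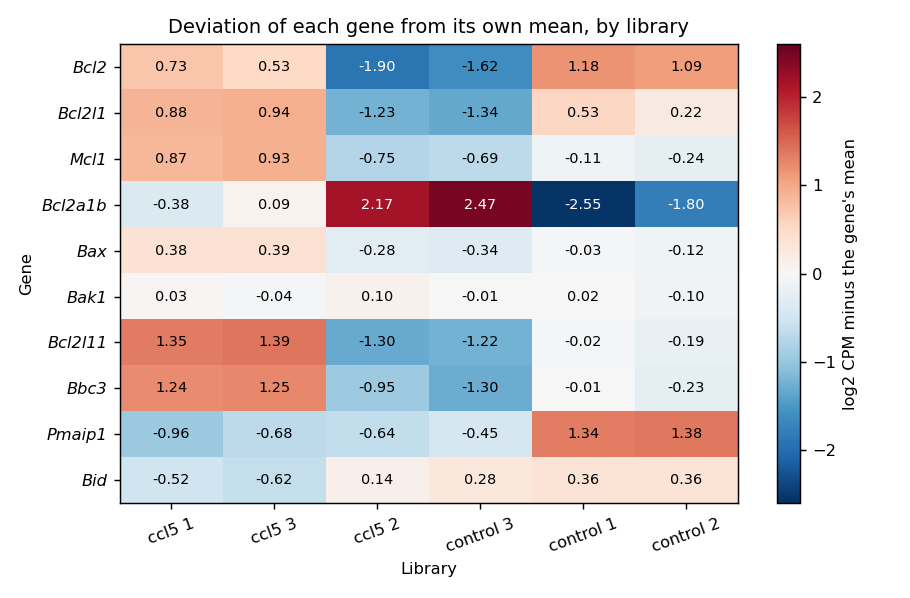
Log2 CPM of each gene (rows) in each library (columns) after subtracting the gene's mean over the 6 libraries; red is above and blue below the mean. Columns of a close pair look alike, including ccl5 replicate 2 beside control replicate 3, and Bak1 is near 0 throughout.

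For the 4 most variable genes, the genes laid out most like them over the 6 libraries were looked up by the root mean square difference of centred log2 CPM. Bcl2l11 was closest to Rai14 (0.0530) and to Dennd4c (0.0744), the latter at 331, 58.3 and 348 CPM with CCL5, against 121, 121 and 59.5 CPM without. Bcl2 was closest to Lsp1, a leukocyte protein that binds actin (0.120), and to St3gal5, the synthase of ganglioside GM3 (0.127). Pmaip1 was closest to Stat4, a transcription factor of cytokine signalling (0.125), at 14.1, 16.6 and 14.6 CPM with CCL5, against 62.8, 63.5 and 22.3 CPM without, and to Bzrap1 (0.148). For Bcl2a1b the nearest were Sorl1, a sorting receptor (0.393), and Myo18b, a myosin (0.454), which matched less closely. With 6 libraries in 3 pairs, many of the genes compared share such a layout, so the match describes these libraries only.

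Promoter sequence was searched for 9 of the 10 genes, Pmaip1 not being analysed here, and is shown for Bcl2l11 and Bbc3, which were laid out alike, and for Bcl2a1b, whose layout was its own. The 250 bases before each gene's start, from RefSeq on GRCm38.p6, were searched on both strands for 6 motifs: GTAAACA (forkhead factors), the NF-kB site, GAGGAAGT (PU.1), CACGTG (E-box), TGANTCA (AP-1) and TGACGTCA (CRE). Capitals mark the matches. The stretches lie at chr2:128125788-128126037, plus strand for Bcl2l11, chr7:16309333-16309582, plus strand for Bbc3 and chr9:89199023-89199272, plus strand for Bcl2a1b.
Bcl2l11: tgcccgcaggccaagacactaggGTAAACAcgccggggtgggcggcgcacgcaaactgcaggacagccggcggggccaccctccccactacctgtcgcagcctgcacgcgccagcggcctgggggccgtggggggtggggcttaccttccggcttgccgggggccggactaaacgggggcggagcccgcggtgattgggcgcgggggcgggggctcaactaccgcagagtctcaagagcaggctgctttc
Bbc3: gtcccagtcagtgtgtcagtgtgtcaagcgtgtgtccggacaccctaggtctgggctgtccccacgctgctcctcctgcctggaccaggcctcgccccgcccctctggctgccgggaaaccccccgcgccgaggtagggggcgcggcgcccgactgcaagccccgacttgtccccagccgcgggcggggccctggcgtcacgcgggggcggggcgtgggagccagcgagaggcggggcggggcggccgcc
Bcl2a1b: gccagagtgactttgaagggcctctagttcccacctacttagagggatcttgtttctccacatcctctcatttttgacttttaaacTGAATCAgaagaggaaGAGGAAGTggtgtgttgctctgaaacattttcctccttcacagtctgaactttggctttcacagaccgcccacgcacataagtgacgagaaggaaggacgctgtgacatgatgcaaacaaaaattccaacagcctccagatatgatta

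Bcl2l11 held the forkhead letters once, as did 3.17% of 32851 promoters of this length. Bbc3 held none of the 6 motifs in this window. Bcl2a1b held the PU.1 letters and the AP-1 pattern once each, found in 2.44% and 6.75% of promoters, and these 2 matches do not overlap. The AP-1 pattern took any base at its N, which in this match is A (TGAATCA). The match and its share are thus to a looser pattern than the AP-1 site. Of the other members searched, Bak1 held the PU.1 letters and Bax the E-box, which 6.02% of promoters hold, and Bcl2, Bcl2l1, Mcl1 and Bid held none. A match describes the letters and does not show that a factor binds there.

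Levels of different genes were compared per kilobase of merged exon length, which understates a gene read mainly from a short transcript. Bax had the highest level per kilobase in each of the 6 libraries, at 193 ± 43.8 CPM per kilobase (SD over 6 libraries). Mcl1 followed at 119 ± 62.9, then Pmaip1 at 58.2 ± 45.8 and Bak1 at 52.8 ± 2.50. Bid stood at 35.7 ± 9.93, Bcl2l1 at 24.1 ± 13.5 and Bcl2l11 at 19.8 ± 15.3, and the lowest were Bbc3 at 10.5 ± 7.49, Bcl2a1b at 8.96 ± 10.2 and Bcl2 at 4.14 ± 2.67 CPM per kilobase. Among neighbours in this order, the ranges over the 6 libraries were apart for Bak1 and Bid alone. Pmaip1 moved most in rank, from rank 2 in control replicates 1 and 2 to rank 7 in ccl5 replicate 1.

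Mcl1 made up 66.6% to 81.0% of the summed survival transcripts per kilobase in a library, and Bcl2 0.891% to 5.40%. The summed survival genes measured 239.6, 92.1 and 250 CPM per kilobase with CCL5 and 135, 121 and 99.1 without. The summed death genes measured 405, 290.2 and 410.1 CPM per kilobase with CCL5, against 420.5, 406 and 286 without. The summed death genes thus exceeded the summed survival genes in all 6 libraries, by the smallest ratio in ccl5 replicates 1 and 3. Bax alone made up 42.8% to 60.6% of the death sum in a library. The excess depends on the genes listed, 6 death against 4 survival genes, and is no measure of a balance between death and survival. The log2 ratio of survival to death genes was -0.76, -1.66 and -0.71 with CCL5 and -1.64, -1.74 and -1.53 without, and ccl5 replicate 2 lay among the controls.

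**Figure D5:**
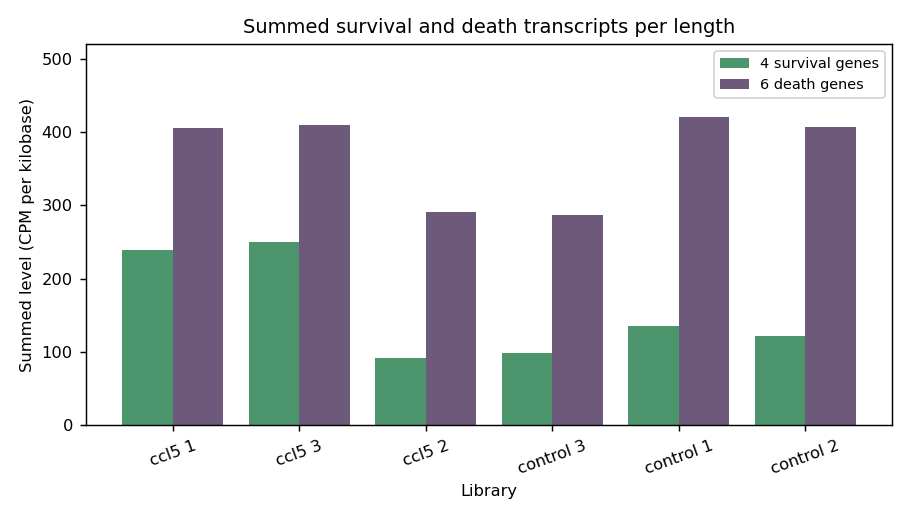
Summed level of the 4 survival genes (green) and the 6 death genes (purple) in each library, in CPM per kilobase. The survival bars are highest in ccl5 replicates 1 and 3, and both bars are low in ccl5 replicate 2 and control replicate 3 compared with ccl5 replicates 1 and 3.

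Ratios between single partners were given per kilobase on the log2 scale, with no test. How often the ratio of other gene pairs separates the groups was not worked out. The ratio of Mcl1 to Pmaip1 was 3.05, 1.11 and 2.83 with CCL5 and -0.23, -0.40 and 0.98 without. All 3 ccl5 libraries were above all 3 controls, with ccl5 replicate 2 and control replicate 3 next to each other. Pmaip1 alone already did not overlap between the groups. The ratio of Bcl2 to Bcl2l11 was -2.92, -2.90 and -3.16 with CCL5 and -1.10, -1.02 and -2.70 without. All ccl5 libraries lay below all controls, and control replicate 3 was closest to them. The ratio of Bcl2 to Bax was -5.59, -7.57 and -5.81 with CCL5 and -4.73, -4.73 and -7.22 without, and the groups overlapped. The ratio of Bcl2l1 to Mcl1, -2.39, -2.89 and -2.39 with CCL5 and -1.76, -1.94 and -3.05 without, overlapped as well.

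Over the 41 tested genes of 4 further lists of the pathway, edgeR called 0 and limma-voom 27, in the fit that called 66.5% of all genes. DESeq2 called 0 of the 38 for which it gave an adjusted p. Counts in these lists stand beside 13.7% of all tested genes at an unadjusted p under 0.05 (8.99% higher and 4.67% lower) and 15.8% without overlap between the groups. Of 16 other BCL2 family genes, 11 were tested and 0 passed the edgeR test at an adjusted p of 0.05. At an unadjusted p under 0.05 there were 3, all with higher fold changes, with a median log2 fold change of 0.01 over the 11. Bmf, a BH3-only gene, was the only one without overlap, at 36.8, 28.5 and 36.7 CPM with CCL5, against 16.2, 14.6 and 27.6 CPM without (0.80, SE 0.29, adjusted p = 0.365). The mitochondrial receptors of autophagy Bnip3 and Bnip3l had the other 2, at log2 fold changes of 0.86 (SE 0.35) and 0.92 (SE 0.32). Bnip3 measured 109, 50.8 and 131 against 53.1, 53.6 and 53.0 CPM, and Bnip3l 311, 187 and 365 against 124, 131 and 200.1 CPM. In both genes ccl5 replicate 2 was within or below the range of the controls.

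Bcl2l2, which encodes the survival protein BCL-W, was steady at 54.0, 64.9 and 50.8 and 57.1, 57.8 and 67.1 CPM, a log2 fold change of -0.10 (SE 0.16). The BH3-only gene Bad was at 0.01 (SE 0.22), Bcl2l13 at 0.12 (SE 0.18) and Bcl2l12 at -0.21 (SE 0.39). Bcl2l14 measured 1.35, 16.5 and 1.27 CPM with CCL5, against 7.48, 7.57 and 18.4 CPM without, and the BH3-only gene Bik 6.05, 0.794 and 4.28 and 2.22, 2.08 and 1.54 CPM. Bcl2l14 was low in ccl5 replicates 1 and 3 and Bik was high there, and the groups overlapped for both. The untested genes were near 0: Bok had at most 9 counts in a library, Bcl2l15 at most 7, Bcl2l10 at most 3, and Hrk at most 1.

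Downstream of the pore, 0 of 10 genes of the apoptosome and the caspases passed the edgeR test, and 1 had an unadjusted p under 0.05, against 13.7% of all tested genes. That gene was Cycs, which encodes cytochrome c, at 189, 252 and 211 CPM with CCL5, against 316, 344 and 260.1 CPM without, with no overlap (-0.50, SE 0.19, adjusted p = 0.365). Apaf1, the scaffold that cytochrome c activates, measured 161, 119.5 and 164 against 102, 105 and 120.4 CPM (0.44, SE 0.18), and ccl5 replicate 2 was level with control replicate 3. Casp6, an executioner caspase, had a log2 fold change of 0.40 (SE 0.21). The median of the list was -0.04.

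Among 9 inhibitors of apoptosis and their antagonists, 0 passed the edgeR test and 0 had an unadjusted p under 0.05 (median log2 fold change -0.05). Birc6, a large ubiquitin ligase, measured 319, 247 and 323 CPM with CCL5, against 232, 241 and 232 CPM without, and did not overlap between groups (0.33, SE 0.17). Diablo, which encodes the antagonist SMAC, was at -0.33 (SE 0.19) and Birc3, which encodes cIAP2, at 0.32 (SE 0.19). Of the 12 genes that act on MCL1, BID or BH3-only genes or form the mitochondrial channel VDAC, 11 were tested, 0 passed the edgeR test and 1 had an unadjusted p under 0.05, again against 13.7% of all tested genes (median 0.19). It was Foxo3, a forkhead factor known to activate Bcl2l11, Bbc3 and Pmaip1, at 43.4, 20.5 and 40.3 CPM with CCL5, against 14.5, 12.3 and 21.9 CPM without (1.10, SE 0.37, adjusted p = 0.365). Foxo3 in ccl5 replicate 2 was below control replicate 3, so the groups overlapped. Ctsb, a lysosomal protease able to cleave BID, was at 1.997 (SE 0.86). It measured 19247, 1938 and 19024 CPM with CCL5, against 4097, 4061 and 1915 CPM without, so the groups overlapped. Vdac2, which binds BAK, was at -0.42 (SE 0.21). Gzmb was at 0 in every library.

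Bax, Bbc3 and Pmaip1 are known targets of p53, and Trp53 and Mdm2 were looked at after their values were seen. Trp53 measured 39.7, 47.2 and 33.8 CPM with CCL5, against 36.1, 35.1 and 45.5 CPM without. Mdm2, a p53 target that also encodes its inhibitor, measured 244, 99.6 and 271 and 208, 214 and 95.5 CPM. It was low in ccl5 replicate 2 and control replicate 3, as Bbc3 and Bax were. Pmaip1 was low in every ccl5 library and in control replicate 3 (62.4 to 88.9 CPM), and high in control replicates 1 and 2 alone (306 and 315 CPM). Trp53 was highest in ccl5 replicate 2 and control replicate 3. The log2 fold change of Mdm2 was 0.25 (SE 0.48), and that of Trp53 0.05 (SE 0.20). The part of p53 in these values was not tested.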

How the data were processed

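By the labels' protocols, poly(A)-selected RNA gave single-end reads of 100 bases. The authors deposited raw read counts per gene, made with featureCounts 1.5.1 on primary alignments with the UCSC mm10 annotation and no strand option, per the file headers. Exons of the 10 genes overlap those of no other gene in the table. Trimmomatic, Bowtie, TopHat and DESeq2 are named in the submitters' processing notes, with no versions. The deposited exon lengths served for CPM per kilobase.

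Counts were filtered with filterByExpr (minimum count 10), TMM-scaled and tested over all genes with edgeR 4.0.16 in R 4.3.3 (quasi-likelihood, two-sided, Benjamini-Hochberg over all tested genes, threshold 0.05). The SE is the absolute log2 fold change over the square root of F, and intervals use the fit's degrees of freedom. The test was tried on simulated counts. Alternatives used DESeq2 1.42.0, limma 3.58.1 and fewer libraries. An adjusted p that DESeq2 did not give (Bcl2a1b) stayed out of counts. Groups came from the treatment labels and titles, and replicate numbers of the ccl5 group are in accession order.

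The members and lists were chosen with earlier results of these data known. The text names all members, every other BCL2 family gene and the 3 genes of smallest p of each other list. For the 4 members of largest SD of log2 CPM (prior count 2), it names the 2 tested genes nearest in layout. These were taken from non-predicted genes whose mean log2 CPM was 4 or more. Trp53, Mdm2 and Gzmb were named outside this rule. Markers of B, T, erythroid and stromal cells were summed beside those of myeloid cells: T and NK genes reached at most 3.08 CPM in a library, erythroid genes 2.02, B-cell genes 17.0 and stromal and endothelial genes 95.9, most of it Pecam1.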

Additional observations from a re-analysis of the deposited data

How the results depend on the processing

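The count of called BCL2 family genes stayed at 0 of 10 with DESeq2 size factors, library totals, no filter, a filter of CPM over 1 in at least 3 libraries, DESeq2 (0 of 9, Bcl2a1b having no adjusted p), a threshold of 0.1, primary transplant libraries and libraries with Y-linked reads. Limma-voom with quality weights called 8 of them, 27 of the other apoptosis genes and 8097 of all genes, and DESeq2 called 199 of all genes. Over the 6 fits that left out a library, 0 to 5 BCL2 family genes, 0 to 11 other apoptosis genes and 0 to 3299 of all genes were called; the calls came without ccl5 replicate 2 and, for 1 BCL2 family gene and 237 of all genes, without control replicate 3. The cause was not tested.

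The median log2 fold change of the 10 genes was 0.48 with limma-voom, 0.70 with primary transplant libraries and -0.48 with Y-linked libraries and 0.057 with library totals, against 0.22, and 0.19 to 0.29 without single libraries. Signs turned for Bcl2 with primary transplant libraries (1.37), for Bak1 with library totals (-0.10), and with Y-linked libraries for Bcl2l1 (-1.24), Mcl1 (-0.43), Bcl2l11 (-0.92), Bbc3 (-0.54) and Bax (-0.12). For Bcl2a1b they turned with library totals (-0.028) and primary transplant libraries (-1.001), and its values without single libraries ran from -1.13 to 3.20. Pmaip1 and Bid kept their sign in all 14 fits run besides the edgeR fit to all libraries. All their ccl5 levels lay below all their control levels, so fits on fewer libraries could hardly turn the sign, and nothing is read from this. The fits with 1 library in a group assume that it varies like the others. No paired analysis was possible because replicate numbers of the ccl5 group are in accession order and pair nothing. With 3 libraries a group in 3 pairs, the spread rather than depth limits these values, except for the 9 and 18 counts of Bcl2a1b.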
